A study of Mus musculus with 2 samples.

Results

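The 10 genes described here are linked to the transcription factor NF-kB in macrophages. Of these, 6 encode secreted signals (Ccl3, Ccl4, Cxcl2, Tnf, Il1a and Il1b), and 4 act inside or on the cell and are called feedback genes below (Nfkbia, Nfkbiz, Tnfaip3 and Cd83). They were chosen by name, and all 10 were found among the 31053 genes listed, of which 18155 had at least 1 count in the cells kept. The cells were hypothalamic microglia, which are the brain's own macrophages, taken from young wild-type mice. They were collected 20 hours after the animals were injected with dye-labelled plasma protein, and cells from several animals were pooled. A fluorescence sort divided them into plasma-positive cells, which carried the dye, and plasma-negative cells, which did not, and each fraction gave 1 library. Both fractions came from injected mice, so neither stands for an uninjected animal, and the labels do not give the number of mice in the pool.

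NF-kB is held in the cytoplasm by inhibitor proteins and enters the nucleus when signals from Toll-like receptors, the TNF receptor or the interleukin-1 receptor lead to the destruction of those inhibitors. In the nucleus it raises the transcription of chemokines, which attract other leukocytes, and of inflammatory cytokines, and it also switches on genes whose products end its own activity. In microglia the same genes can be set off by handling the tissue during cell isolation, and for that reason immediate early genes, which respond to the same handling, were counted beside them.

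RefSeq promoter windows, from 250 bases before to 50 bases after a start site on build GRCm38.p6, were found for 7 of the 10 genes (8 windows, since Tnfaip3 has a pair of start sites). The windows were searched on both strands for the NF-kB consensus, a motif of 10 bases, and on the gene's own strand for TATAAA. The NF-kB consensus lay in the windows of Cxcl2, Nfkbia and Tnfaip3, which is 3 of 7 genes, and it lay in 1480 of the 32851 windows of all genes, or 4.51%. It was not in the windows searched for Ccl3, Tnf, Il1a and Il1b. TATAAA was found 32 bases before the start of Il1a, 31 before Il1b, 29 before Tnf and 225 before Tnfaip3, which is 4 of 7 genes, and it lay anywhere in the window in 8.32% of all windows. A match to the letters is a description of the sequence and not evidence of binding. The 3 promoters with a match and those of Ccl3 and Il1a, a clustered and a widely spread gene in the counts below, are shown for the 250 bases before the start, 5′ to 3′ on the gene's own strand, with NF-kB consensus matches in capitals.
Cxcl2 promoter, chr5:90903649-90903898, plus strand: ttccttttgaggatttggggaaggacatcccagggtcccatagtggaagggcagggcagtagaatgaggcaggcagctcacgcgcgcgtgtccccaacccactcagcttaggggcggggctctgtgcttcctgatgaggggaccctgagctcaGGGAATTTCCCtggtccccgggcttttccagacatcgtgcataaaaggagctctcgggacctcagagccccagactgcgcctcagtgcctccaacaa
Nfkbia promoter, chr12:55492648-55492897, minus strand: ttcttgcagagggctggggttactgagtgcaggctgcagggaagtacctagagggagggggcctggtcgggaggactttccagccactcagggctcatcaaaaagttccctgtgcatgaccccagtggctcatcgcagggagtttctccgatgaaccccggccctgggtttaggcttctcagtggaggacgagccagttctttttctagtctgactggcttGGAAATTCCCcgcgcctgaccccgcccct
Tnfaip3 promoter, chr10:19015411-19015660, minus strand: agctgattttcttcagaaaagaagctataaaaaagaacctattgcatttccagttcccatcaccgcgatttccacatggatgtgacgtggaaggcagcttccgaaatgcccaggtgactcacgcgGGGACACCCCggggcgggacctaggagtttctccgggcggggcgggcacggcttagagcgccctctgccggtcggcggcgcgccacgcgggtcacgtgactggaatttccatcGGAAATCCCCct
Ccl3 promoter, chr11:83649379-83649628, minus strand: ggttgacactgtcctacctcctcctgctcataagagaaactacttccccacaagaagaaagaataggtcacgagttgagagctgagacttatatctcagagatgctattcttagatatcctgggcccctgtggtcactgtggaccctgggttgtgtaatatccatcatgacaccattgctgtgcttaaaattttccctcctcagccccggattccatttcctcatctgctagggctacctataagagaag
Il1a promoter, chr2:129309973-129310222, minus strand: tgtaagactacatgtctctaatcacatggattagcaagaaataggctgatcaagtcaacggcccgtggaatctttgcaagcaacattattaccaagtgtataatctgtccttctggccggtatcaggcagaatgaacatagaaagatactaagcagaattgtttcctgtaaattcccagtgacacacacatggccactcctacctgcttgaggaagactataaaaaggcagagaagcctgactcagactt
The matches of Cxcl2 begin 97 bases before the start on its own strand and 96 bases before it on the opposite strand, so they overlap almost fully. Those of Tnfaip3 begin 125 bases before its RefSeq start on the same strand and 12 before it on the opposite strand. The GENCODE M21 annotation places this gene at chr10:19000910-19015657 on the minus strand. Both matches therefore lie inside the gene as annotated there, and the 2 sources differ on its start. The match of Nfkbia begins 29 bases before its start, on the opposite strand. Ccl3 and Ccl4 are neighbours on chromosome 11, at chr11:83647844-83649355 on the minus strand and chr11:83662584-83664683 on the plus strand (GENCODE M21, GRCm38), and Il1a and Il1b lie near each other on chromosome 2, at chr2:129299610-129309972 and chr2:129364570-129371139, both on the minus strand.

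Single-cell libraries were made in droplets, where a random barcode called a UMI tags every captured transcript, so a count is a count of molecules. After cells with under 500 UMIs, under 300 genes or over 10% mitochondrial UMIs were removed, 9860 cells remained in the plasma-negative library and 10362 in the plasma-positive one, holding 34534518 and 41984977 UMIs. The plasma-positive cells were deeper, with a median of 3753 UMIs against 3270.5, and had a slightly higher median mitochondrial share, 1.27% against 1.08%. At least 4 of 11 microglia markers were detected in 99.8% of the cells of each library. Of the other cell types that make these cytokines, the neutrophil markers S100a8, S100a9, Ly6g and Retnlg and the monocyte markers Ly6c2 and Chil3 had 0 UMIs in both libraries. The other markers of these types were rare: the 6 neutrophil markers summed to 0.898 and 0.929 CPM, each in at most 0.233% of cells, and the 6 monocyte markers to 4.98 and 4.91 CPM, each in at most 0.761% of cells. At least 4 of 7 border-associated macrophage markers were seen in 0 plasma-negative cells and 1 plasma-positive cell. With 1 library per group there is no replicate check and no test was run. All intervals are at 95% and cover counting error only, not the spread between mice or sorts. Those of levels and ratios take every UMI as independent, so they are too narrow for genes whose UMIs lie in few cells.

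Among the 6 secreted genes, the chemokines and Il1b were higher in the plasma-positive library, while Il1a differed little. Levels are given as CPM, the UMIs of a gene per 1000000 UMIs of its library. The counts come from the 3′ ends of transcripts and are not corrected for transcript length, so the CPM of different genes are not ranked against each other.

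Ccl4 encodes a chemokine that attracts monocytes and T cells. It had 716 UMIs in the plasma-negative library (20.7 CPM, interval 19.2 to 22.3) and 1853 in the plasma-positive library (44.1 CPM, interval 42.1 to 46.2). Its level was 2.13 times as high with the dye (1.95 to 2.32), a log2 ratio of 1.09 (0.96 to 1.22). Ccl3, which encodes a close relative acting through Ccr1, had 568 and 963 UMIs, or 16.4 and 22.9 CPM. Its log2 ratio was 0.48 (0.33 to 0.63), lower than that of Ccl4. The counting intervals of the 2 ratios did not overlap, but they leave out the spread between cells. In the plasma-positive library, 10 cells held 50% of the Ccl4 UMIs and 16 cells 50% of the Ccl3 UMIs, so whether the ratios differ was not tested.

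Cxcl2 encodes a neutrophil-attracting chemokine. It had 13 UMIs in the plasma-negative library (0.376 CPM) and 107 in the plasma-positive library (2.55 CPM), a log2 ratio of 2.76 (1.92 to 3.71). Nearly all of these counts came from single cells: all 13 plasma-negative UMIs were in 1 cell, and 94 of the 107 plasma-positive UMIs were in 1 cell. The ratio therefore rests largely on 1 cell in each library. With cells of at most 5% mitochondrial UMIs its sign turned, to -0.28, since that limit removes the plasma-positive cell, which had 5.47%.

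Tnf encodes tumour necrosis factor, the cytokine that activates NF-kB through the receptors Tnfrsf1a and Tnfrsf1b. It had 161 UMIs (4.66 CPM) in the plasma-negative and 226 UMIs (5.38 CPM) in the plasma-positive library, and the interval of its log2 ratio, 0.21, ran from -0.09 to 0.51 and so held 0. Il1b, which encodes a cytokine released after cleavage by the inflammasome, had 57 UMIs (1.65 CPM) and 195 UMIs (4.64 CPM). Its log2 ratio was 1.49 (1.06 to 1.94), and it was detected in 50 plasma-negative and 109 plasma-positive cells. A long non-coding gene, Il1bos, overlaps Il1b in antisense and had 30 and 22 UMIs. The use of strand in the counting is not given in the sources used here, so reads from the overlap cannot be told apart. The same holds for Il1a and Gm14023, a transcript on the other strand that was not analysed here.

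Il1a encodes the interleukin-1 form that is active without cleavage. It had 2807 UMIs (81.3 CPM) and 3612 UMIs (86.0 CPM), a log2 ratio of 0.08 (0.01 to 0.15). Unlike the other secreted genes it was found in a large share of microglia, 22.3% in the plasma-negative and 26.3% in the plasma-positive library. Summed over the 6 genes, the level was 125 CPM in the plasma-negative and 166 CPM in the plasma-positive library, a ratio of 1.32 (1.27 to 1.38).

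The 4 feedback genes lay close to equal in the libraries. Nfkbia encodes IkB-alpha, the inhibitor that binds NF-kB in the cytoplasm and is itself remade when NF-kB is active. It had 5169 UMIs (150 CPM, interval 146 to 154) in the plasma-negative library and 5473 UMIs (130 CPM, interval 127 to 134) in the plasma-positive library, a log2 ratio of -0.20 (-0.25 to -0.14). This was the lowest ratio of the 10 genes, and its interval did not hold 0.

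Nfkbiz encodes a nuclear IkB protein that helps to switch on a subset of NF-kB targets. It had 394 UMIs (11.4 CPM) and 457 UMIs (10.9 CPM), with a log2 ratio of -0.07 (-0.27 to 0.13). Tnfaip3 encodes A20, a ubiquitin-editing enzyme that ends signalling to NF-kB. It had 850 UMIs (24.6 CPM) and 989 UMIs (23.6 CPM), with a log2 ratio of -0.06 (-0.20 to 0.07). Cd83, a surface protein of activated antigen-presenting cells, had 2353 UMIs (68.1 CPM) and 2979 UMIs (71.0 CPM), with a log2 ratio of 0.06 (-0.02 to 0.14). The intervals of these 3 genes all held 0. Summed over the 4 genes, the level was 254 CPM against 236 CPM, a ratio of 0.929 (0.902 to 0.956). Nfkbia, the only one of the 4 whose own interval lay below 0, gave 5169 of the 8766 summed plasma-negative UMIs and 5473 of the 9898 plasma-positive ones. The sum is therefore not a decrease shared by the 4 genes.

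**Figure D1:**
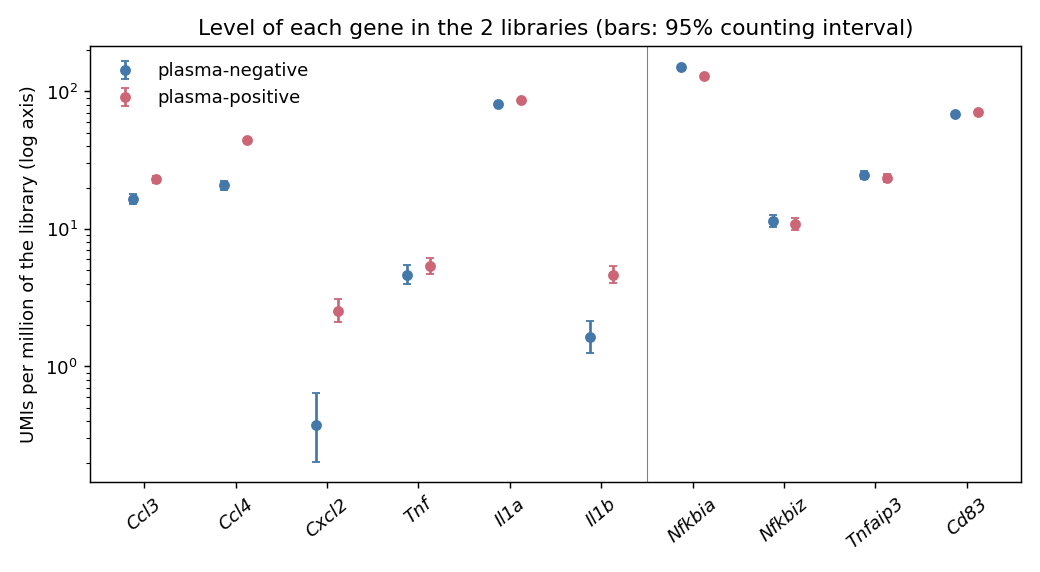
Level in CPM (log axis) of each of the 10 genes in the plasma-negative (blue) and plasma-positive (red) libraries, with bars for the 95% counting interval; the vertical line separates the 6 secreted genes from the 4 feedback genes. Cxcl2, Il1b and Ccl4 are visibly apart between the libraries, while the 4 feedback genes, at 10.9 to 150 CPM, nearly coincide.

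For comparison with the whole transcriptome, genes that reached 10 CPM in either library were taken, and 7 of the 10 members did. Cxcl2, Tnf and Il1b stayed below that level. Among the 7, Ccl4 alone was at least 1.5-fold higher in plasma-positive cells and none was at least 1.5-fold lower. Over all 8355 genes at that level, 0.323% were at least 1.5-fold higher and 0.0239% at least 1.5-fold lower, and 0.227% were at least 2-fold higher and 0% at least 2-fold lower. The median log2 ratio of the 7 members was 0.06 and that of all 8355 genes was -0.04. At a minimum of 50 CPM, which Ccl4 does not reach, no member passed 1.5-fold (all genes: 0.141% higher, 0% lower), and without a minimum 3 did, Ccl4, Cxcl2 and Il1b, beside 15.9% of all 18155 genes, with 9.97% of them 1.5-fold lower and 0 members lower.

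**Figure D2:**
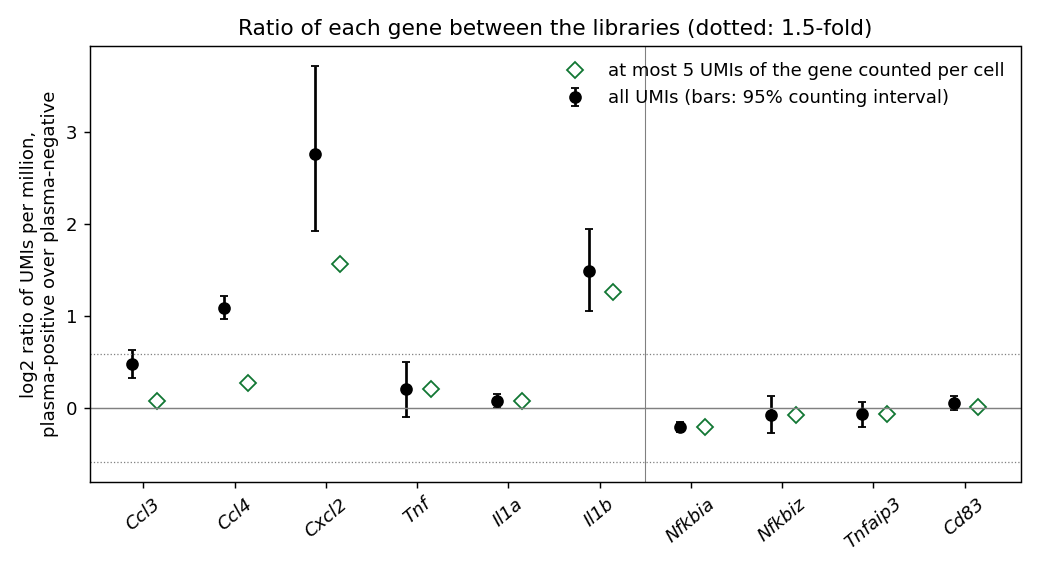
Log2 ratio of plasma-positive over plasma-negative CPM of each gene, with all UMIs (black, bars for the 95% counting interval) and with at most 5 UMIs of the gene counted per cell (green diamonds); dotted lines mark 1.5-fold. For Ccl4 and Ccl3 the ratio drops from 1.09 and 0.48 to 0.28 and 0.08 when high cells are capped, while the 4 feedback genes barely move.

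The higher level of Ccl4 in the plasma-positive library was held in a small number of cells. Cells with at least 1 Ccl4 UMI were 2.24% of the plasma-negative and 2.61% of the plasma-positive library, and once each cell was thinned to 1000 UMIs, which left 9064 and 9759 cells, the shares were 1.03% and 0.973%. For Ccl3 the shares were 2.79% and 3.23% before thinning and 1.10% and 0.932% after it. At equal depth the intervals of the 2 libraries overlapped for both genes (0.829% to 1.26% and 0.788% to 1.19% for Ccl4), so no difference in the share of cells was detectable. No cell type that lacks these genes was at hand, so the share that free RNA could give was not measured.

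Cells with many copies were more numerous in the plasma-positive library, whose cells were also deeper. Cells with at least 10 Ccl4 UMIs numbered 11 in the plasma-negative library and 31 in the plasma-positive library, and they held 60.5% and 80.7% of all Ccl4 UMIs. Their median was 33 and 35 UMIs, and the highest cell held 85 and 257. For Ccl3 there were 8 and 19 such cells, with 32.2% and 54.4% of its UMIs. When at most 5 UMIs of a gene were counted per cell, the log2 ratio of Ccl4 was 0.28, that of Ccl3 0.08 and the summed ratio of the 6 secreted genes 1.10, while that of the 4 feedback genes was 0.922. Without the single highest Ccl4 cell of each library the log2 ratio of Ccl4 was 1.06, so it did not rest on 1 cell.

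The members differed in how widely their UMIs were spread. To hold 50% of a gene's UMIs took 1 cell in each library for Cxcl2, 7 plasma-negative and 10 plasma-positive cells for Ccl4, and 30 and 16 cells for Ccl3. It took 22 and 19 cells for Il1b and 68 and 80 for Tnf. The figures were 161 and 189 cells for Nfkbiz, 329 and 400 for Tnfaip3, and 671 and 634 for Cd83. Il1a and Nfkbia were the most evenly held, with 799 and 920 cells for Il1a and 929 and 971 for Nfkbia. Since a rare transcript is always held by few cells, the chemokines were set beside genes of like level. Of 4805 genes at 10 to 50 CPM, Ccl4 ranked 5 in the plasma-negative and 4 in the plasma-positive library, counted from the most concentrated, by the share of its UMIs in the top 1% of cells, with 83.0% and 91.0% against a median gene's 21.2% and 19.9%. Ccl3 ranked 6 and 5, with 69.0% and 76.0%. At 50 to 200 CPM, among 2713 genes, Cd83 ranked 31 and 3, with 14.7% and 17.9% against medians of 10.6% and 9.97%, whereas Il1a ranked 913 and 1190 and Nfkbia 1259 and 956.

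**Figure D3:**
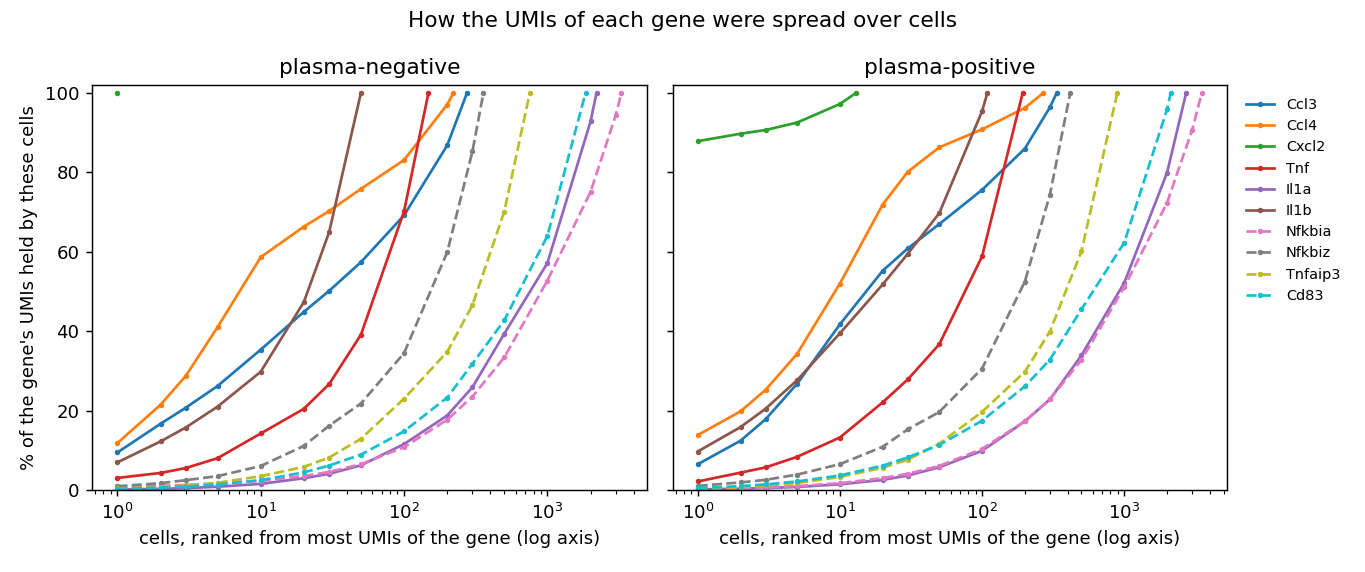
Share of each gene's UMIs (vertical axis, %) held by the cells with the most UMIs of that gene (horizontal axis, number of cells, log scale), for the plasma-negative (left) and plasma-positive (right) library; solid lines are secreted genes and dashed lines feedback genes. Ccl4 climbs earliest apart from Cxcl2, reaching 50% within 7 and 10 cells, and Nfkbia and Il1a climb last.

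The 6 secreted genes were also counted together at equal depth. After thinning, 0.221% of plasma-negative cells (0.135% to 0.341%) and 0.379% of plasma-positive cells (0.267% to 0.522%) had at least 3 UMIs of the secreted genes, and the intervals of the 2 shares overlapped. The unthinned shares were 2.09% and 2.96%. Thinned detection of Il1b was 0.154% and 0.266% of cells (0.507% and 1.05% unthinned), that of Tnf 0.375% and 0.512% (148 and 193 cells unthinned), and that of Il1a 7.44% and 7.95%. Nfkbia was detected in 13.2% (12.5% to 13.9%) and 11.9% (11.2% to 12.5%) of thinned cells, lower in the plasma-positive library as its CPM was, against 33.3% and 33.9% before thinning. The other feedback genes were near equal after thinning, with 1.05% and 1.00% for Nfkbiz, 2.44% and 2.31% for Tnfaip3, and 6.42% and 6.20% for Cd83. Unthinned, these were 3.63% and 4.02%, 7.65% and 8.63%, and 18.7% and 20.5%.

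Ccl3 and Ccl4 were found in the same cells. In thinned plasma-negative cells, 19 held a UMI of both against 1.03 expected from their shares, 18.5 times as many (interval 11.1 to 28.9). In plasma-positive cells 27 held both against 0.886 expected, 30.5 times as many (20.1 to 44.3). Pearson's r of their log counts over the 9064 and 9759 thinned cells was 0.41 and 0.61. These points are cells of 1 library each and share its depth and sort. The cell with the most Ccl4 UMIs was in each library also the cell with the most Ccl3 UMIs, with 54 Ccl3 and 85 Ccl4 UMIs in the plasma-negative and 63 Ccl3 and 257 Ccl4 UMIs in the plasma-positive library.

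The chemokine cells also overlapped with cells positive for other secreted genes. In plasma-positive cells, 6 held Ccl4 and Il1b against 0.253 expected and 6 held Ccl4 and Tnf against 0.487 expected. In plasma-negative cells, 2 held Ccl4 and Tnf against 0.349 expected, and 0 held Ccl4 and Il1b against 0.144 expected, numbers too small to set against the other library. Il1a, the widely spread cytokine, met Ccl4 in 12 cells against 6.92 expected and in 9 against 7.55, and both intervals held 1.

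Of the feedback genes, Cd83 was found with both chemokines more often than their shares give in both libraries. Ccl3 and Cd83 were together in 17 plasma-negative cells against 6.42 expected and in 21 plasma-positive cells against 5.64. The corresponding counts for Ccl4 and Cd83 were 14 against 5.97 and 18 against 5.89, and all 4 intervals lay above 1. Ccl4 and Nfkbia were together in 21 cells against 12.2 expected and in 20 against 11.3, but with thinning to 2000 UMIs the counts were 36 against 31.3 and 39 against 31.4, with intervals that held 1. Ccl3 and Nfkbia were together in 11 plasma-negative cells against 13.2 expected and in 22 plasma-positive cells against 10.8. With thinning to 2000 UMIs, Ccl3 with Cd83 and Ccl4 with Cd83 had intervals above 1 in both libraries. For Tnf and Tnfaip3, the cytokine and the enzyme that ends its signal, 7 plasma-negative cells against 0.829 expected held both, and 1 plasma-positive cell against 1.15 did. With thinning to 2000 UMIs these were 11 against 2.95 and 7 against 3.97, with intervals that overlapped. Cells with any secreted-gene UMI and any feedback-gene UMI numbered 212 against 185 expected in the plasma-negative library (1.15 times, 0.996 to 1.31) and 228 against 190 in the plasma-positive library (1.20 times, 1.05 to 1.37). Of the 45 pairs among the 10 genes, 23 had an expected number of at least 1 in both libraries. The interval lay above 1 in 4 of these 23 pairs in the plasma-negative and in 11 in the plasma-positive library, and below 1 in 0 pairs of either. Ccl3 with Ccl4 is not among the 23, as fewer than 1 cell was expected in the plasma-positive library. Pairs of other genes were not counted, so these numbers do not show that co-detection was particular to the 10 genes.

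**Figure D4:**
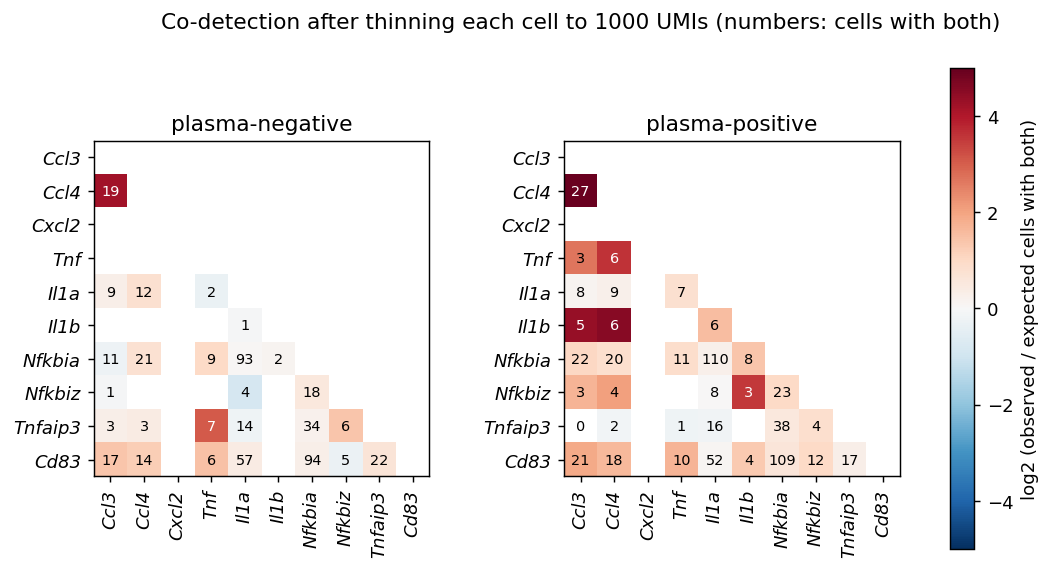
Observed over expected number of cells with a UMI of both genes of a pair (colour, log2 scale; printed number, cells with both), after thinning to 1000 UMIs per cell, in the plasma-negative (left) and plasma-positive (right) library; a pair is shown where at least 1 cell was expected or at least 3 were seen. Ccl3 with Ccl4 is the darkest pair in both libraries, with 19 and 27 cells, and the Cd83 row is red in both chemokine columns.

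To see which of the other members were present in chemokine-rich cells, cells were binned by their summed Ccl3 and Ccl4 UMIs. The bins were 0, 1 to 2, 3 to 9, and at least 10 UMIs, and the highest bin held 14 plasma-negative and 36 plasma-positive cells. These cells were deeper than those with none, with medians of 5378 against 3250 UMIs and 5534 against 3717, and had higher median mitochondrial shares, 1.56% against 1.08% and 1.85% against 1.27%. They carried a median of 9.5 and 10 of the 11 microglia markers, against 11 and 11. The part of depth in detection was not tested, so CPM within the bin are given beside the shares of cells.

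Cd83 was detected in 18.1% of plasma-negative cells with no chemokine UMI and in 64.3% of those with at least 10, and its level was 65.1 and 266 CPM. In the plasma-positive library the shares were 19.6% and 75.0%, and the levels 64.7 and 492 CPM. Tnf was detected in 1.47% and 21.4% of plasma-negative cells and in 1.66% and 41.7% of plasma-positive cells, with levels of 4.45 and 104 CPM and of 4.54 and 136 CPM. Both genes were higher in the chemokine-rich cells of each library.

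Il1b was detected in 1 of the 14 plasma-negative cells of the highest bin and in 27.8% of the 36 plasma-positive cells, where its level was 302 CPM (231 to 387) against 2.86 CPM in cells with no chemokine UMI. These 36 cells held 62 of the 195 Il1b UMIs of the library. In cells with no chemokine UMI, Il1b was at 1.60 CPM (1.19 to 2.09) without the dye and at 2.86 CPM (2.35 to 3.44) with it, so its difference was also present outside the chemokine-rich cells. Tnf outside them was near equal, at 4.45 and 4.54 CPM.

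Nfkbia was at 148 CPM in plasma-negative cells with no chemokine UMI and at 717 CPM (550 to 919) in the highest bin. In plasma-positive cells it was at 129 and 234 CPM (172 to 310). Of the 62 Nfkbia UMIs in the plasma-negative bin, 45 came from 1 cell, described below. Nfkbiz was at 11.5 and 11.6 CPM in the plasma-negative library, with 1 UMI in the highest bin, and in plasma-positive cells it was at 10.4 and 87.6 CPM (51.9 to 138). Tnfaip3 showed the opposite order, with a higher level in the highest bin of plasma-negative cells, 24.5 and 104 CPM (47.6 to 198), than of plasma-positive cells, 23.8 and 29.2 CPM (10.7 to 63.6). The former rests on 9 UMIs, of which 4 were in that same cell. Il1a was at 80.8 and 150 CPM (80.1 to 257), and at 85.5 and 224 CPM (164 to 299).

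**Figure D5:**
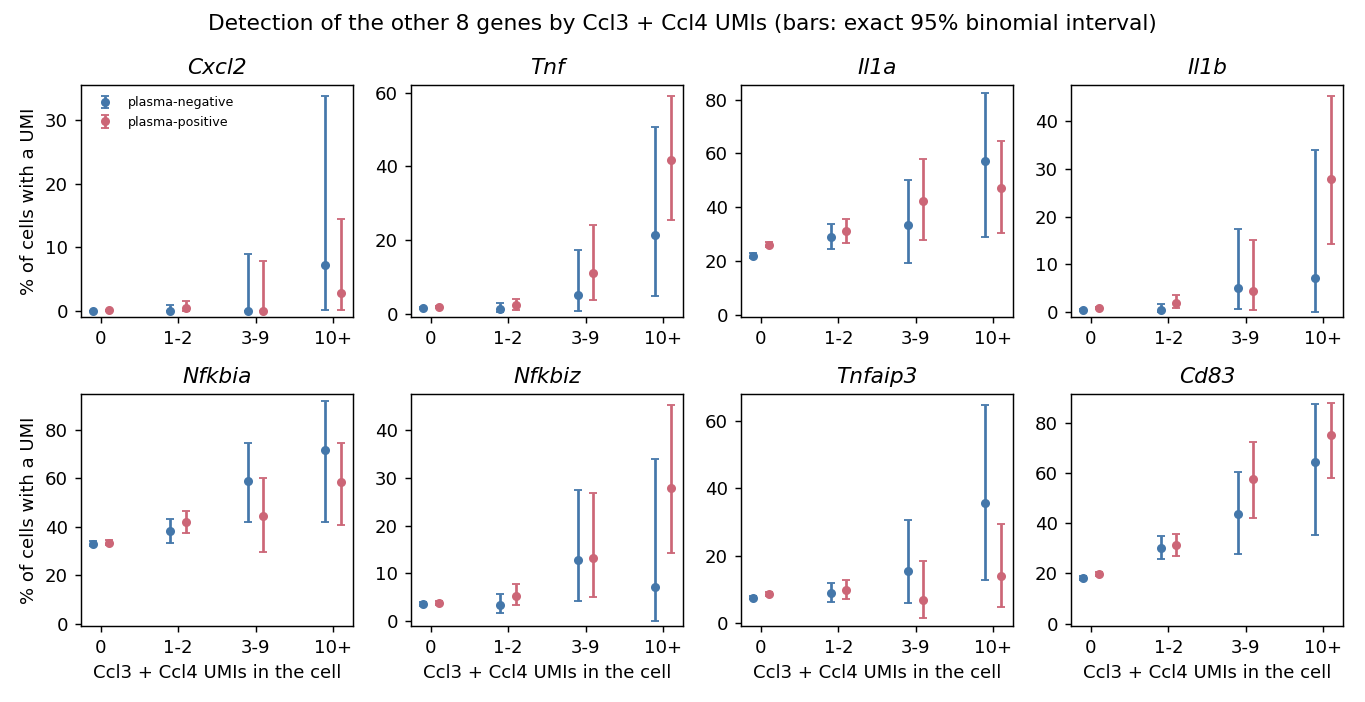
Share of cells with a UMI (vertical axis, %) of each of the other 8 genes, by the summed Ccl3 and Ccl4 UMIs of the cell (horizontal axis, 4 bins), in the plasma-negative (blue) and plasma-positive (red) library, with exact 95% binomial intervals. Cd83 climbs from 18.1% to 64.3% and from 19.6% to 75.0%, and the intervals of the highest bin, with 14 and 36 cells, are wide.

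Inside chemokine-rich cells Ccl4 outnumbered Ccl3. Among cells with at least 10 summed UMIs, Ccl4 made up a median of 66.3% of the pair's UMIs in the 14 plasma-negative cells and 79.0% in the 36 plasma-positive cells, and both genes were present in 14 of 14 and 32 of 36. The share ranged from 8% to 89.5% and from 20% to 100%. Cells with 1 to 9 summed UMIs were different: pooled, Ccl4 made up 44.4% and 45.8% of their UMIs. Both genes are counted at their 3′ ends, so these are shares of captured molecules.

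The single cells that held most Cxcl2 were unusual in each library. The plasma-positive cell had 1626 UMIs, with 94 of Cxcl2, 78 of Ccl4, 42 of Ccl3 and 7 of Cxcl3, another neutrophil-attracting chemokine that had 8 UMIs in the whole library. It carried 1 of 11 microglia markers, with 0 UMIs of Cx3cr1 and Csf1r, and no marker of the other 11 cell types listed, so its type is not named. The plasma-negative cell had 6332 UMIs, with 13 of Cxcl2, 23 of Ccl3, 2 of Ccl4 and 45 of Nfkbia, the most of any cell in that library. It carried 5 of 11 microglia markers, 1 border-associated macrophage marker and a mitochondrial share of 0.079%. It also held 14 of the 19 Traf1 UMIs of its library, 8 of the 20 Gadd45b UMIs and 14 Icam1 UMIs, all genes known as NF-kB targets. Neither cell was among those with the highest doublet scores.

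The other genes of the NF-kB pathway were counted in the same way. As 0.323% of all 8355 genes were 1.5-fold higher and 0.0239% 1.5-fold lower, a count of 0 in a short list is near that share and is no result about the list. Of the NF-kB subunits, 4 of 5 reached 10 CPM and none differed 1.5-fold, with a median log2 ratio of -0.06; the highest in level was Rel, at 162 and 159 CPM. Nfkb2, just under the minimum at 9.76 and 7.55 CPM, had a log2 ratio of -0.37 (-0.60 to -0.14). Among the kinases and adaptors that activate NF-kB, 11 of 12 were measured at that level, none differed 1.5-fold, and the median was -0.03. For 11 other feedback genes, such as Otulin and Cyld, 8 were at that level, none differed 1.5-fold, and the median was -0.06. The median of the 4 feedback members was -0.07, beside -0.04 for all genes.

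Receptors for the secreted members were also counted, in a list that also holds Tlr2, Tlr4, Cd14 and Il1rn, which are not receptors for them. Of the 12 genes of this list, 7 reached 10 CPM, Tlr2, Tlr4 and Cd14 among them. None passed 1.5-fold, and the median log2 ratio was -0.02. The Tnf receptors Tnfrsf1a and Tnfrsf1b were at 120 and 119 CPM and at 80.1 and 83.1 CPM. Ccr1, a receptor of Ccl3, was at 12 and 17.8 CPM, a log2 ratio of 0.57 (0.40 to 0.75), just short of 1.5-fold. A list for the processing of interleukin-1 and Tnf held 6 genes, among them Pycard and Adam17, and also the cytokine gene Il18. All 6 were measured, none passed 1.5-fold, and their median was 0.03.

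Other NF-kB target genes differed in part. Of 24, 13 reached 10 CPM, 4 were at least 1.5-fold higher and none was 1.5-fold lower in plasma-positive cells, beside 0.323% and 0.0239% of all genes, with a median log2 ratio of 0.20. The 4 were all chemokines, Ccl5 (2.58 and 24.2 CPM), Ccl2 (3.33 and 12.2 CPM), Ccl12 (177 and 387 CPM) and Cxcl10 (8.95 and 14.8 CPM). Except for Ccl12, found in 27.7% and 39.4% of cells, they were detected in few cells. The shares were 0.396% and 1.59% for Ccl5, 0.811% and 2.07% for Ccl2, and 0.254% and 0.550% for Cxcl10. Cxcl1, Il10 and Nos2 had 0 UMIs in both libraries. In chemokine-rich cells, Ccl2 was at 220 and 852 CPM against 2.58 and 7.60 CPM in cells with no Ccl3 or Ccl4 UMI, and Ccl12 at 1538 and 2370 CPM against 169 and 371 CPM.

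Immediate early genes, which handling of the tissue can induce, were close in summed level between the libraries. Of 20, 12 reached 10 CPM, none passed 1.5-fold, and the summed level was 2555 and 2470 CPM, a ratio of 0.967 (0.958 to 0.975). The 20 include the heat shock genes Hspa1a, Hspa1b, Hsp90aa1 and Hspa8. Of these, Hspa8 was at 411 and 459 CPM and Hsp90aa1 at 123 and 135 CPM, both higher in the plasma-positive library, unlike the sum. In the highest chemokine bin their summed level was 4765 and 5232 CPM, against 2538 and 2451 CPM in cells with no chemokine UMI. Atf3, a stress-induced transcription factor, was detected in 6.07% of plasma-negative cells with no chemokine UMI and in 57.1% of those with at least 10, and in 5.98% and 61.1% of plasma-positive cells. Single genes of the list differed between the libraries although the sum, carried by abundant genes such as Rhob, was close. Fos had 9 and 29 UMIs, a log2 ratio of 1.41 (0.29 to 2.67), and Egr1 had 95 and 185 UMIs, a log2 ratio of 0.68 (0.32 to 1.05). The log2 ratio of Egr2 was 0.83 (0.01 to 1.69), that of Dusp1 0.46 (0.04 to 0.90) and that of Klf2 0.42 (0.27 to 0.57), while Jun was at -0.18 (-0.23 to -0.14). Transcripts of this list were, in sum, higher in the cells rich in Ccl3 and Ccl4 in both libraries, and their part in the chemokine counts was not tested. They were not alone in this. The interferon-induced genes counted below were in sum at 2105 and 2910 CPM in the highest bin, against 352 and 630 CPM in cells with no chemokine UMI.

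By a fixed measure of likeness, Pearson's r over the thinned cells among 8027 genes, ranked by the lower of the 2 libraries, the gene most like the summed secreted members was Atf3, with r of 0.09 in the plasma-negative and 0.17 in the plasma-positive library. Lpl followed with 0.08 and 0.07, then Ccl12 with 0.05 and 0.06, and the next 7 were Id2, Ftl1, Slc15a3, Junb, Cd9, Fth1 and Cstb. The feedback members had Junb first, with 0.05 and 0.05, followed by Gpr84, Irf2bp2 and Tlr2. For single members, Ccl4 was most like Atf3 (0.16 and 0.28), Ccl3 like Lpl (0.15 and 0.10), Nfkbia like Junb (0.04 and 0.06) and Cd83 like Atf3 (0.05 and 0.05). In counts this sparse most of these values are near 0, and of the single members, the pairs Ccl4 with Atf3 and Ccl3 with Lpl reached 0.10 in both libraries.

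Interferon-induced genes differed most of the lists counted, and their levels are given because they moved with the same contrast. Of 15, 12 reached 10 CPM and 9 were at least 1.5-fold higher in plasma-positive cells (0.323% of all genes), with a summed ratio of 1.82 (1.78 to 1.86). Among thinned cells with 0 UMIs of these genes, 6736 plasma-negative and 6664 plasma-positive cells, the ratio of Ccl4 was 2.92 (2.34 to 3.67) and that of the 4 feedback genes 0.927. At this depth a cell with 0 such UMIs may still express these genes. In cells with at least 3 such UMIs, 126 and 509 cells, Ccl4 had 46 and 14 UMIs and was lower in plasma-positive cells, a ratio of 0.0753 (0.0382 to 0.139), a value that rests on few cells. Within each library, without thinning, the summed interferon level was higher in cells with at least 10 Ccl3 and Ccl4 UMIs than in cells with none. It was 2105 against 352 CPM in the plasma-negative and 2910 against 630 CPM in the plasma-positive library.

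The mitochondrial share, which also differed between the libraries, was divided into 10 bins of equal size. Within bins the log2 ratio of Il1a was above 0 in 10 of 10, from 0.02 to 0.20, and that of Il1b was above 0 in 10 of 10. The bins are parts of the same 2 libraries and not repeats. Every Il1a interval held 0. For Il1b, with 2 to 10 plasma-negative UMIs per bin, the interval lay above 0 only in bins 7, 8 and 10. The log2 ratio of Ccl4 ran from -0.53 to 3.70 and that of Ccl3 from -0.91 to 1.42, with both signs, while that of Nfkbia ran from -0.67 to 0.07. Across 5 bins of cell depth, the ratio of Ccl4 lay between 1.48 and 2.83, and that of the 4 feedback genes between 0.889 and 0.968.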

How the data were processed

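Raw UMI counts per gene and cell were deposited by the authors for 2 libraries. Per the labels' protocols the kit was Chromium 3′ v3.1. Per the file headers the count matrices come from Cell Ranger 6.1.2, whereas the submitters' processing notes name Cell Ranger 3.0.1. The genome build, the annotation and the use of strand are not given in the sources used here. Groups were taken from the sample titles.

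Cells were removed under 500 UMIs, under 300 genes or over 10% mitochondrial UMIs (1 plasma-negative cell failed on genes, and 17 plasma-negative and 28 plasma-positive cells failed on the mitochondrial limit). Doublets were scored with Scrublet in scanpy 1.11.5. Its automatic threshold called 0 cells, so it had not worked; all cells were kept, and removing the 778 and 859 cells with the highest scores was an alternative. Cell barcodes were not used here, so barcodes shared by the libraries were not counted.

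Counts were summed over cells per library and divided by the library's total (CPM), with no pseudocount. Intervals at 95% were exact: Poisson for sums, Clopper-Pearson for shares and conditional binomial for ratios (Python 3.11.15, pandas 2.3.3, numpy 2.4.6, scipy 1.17.1). PCR duplicates are collapsed by UMIs, but cells of a library are not replicates. Detection and pairs of genes were counted after each cell with at least 1000 UMIs was thinned to 1000. TMM scaling came from edgeR 4.0.16 (R 4.3.3) and was an alternative to library totals; no edgeR test was run. Coordinates are from GENCODE M21 (GRCm38), in which 30934 of the 31053 identifiers were found, and promoters from RefSeq.

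The genes, lists and alternatives were chosen with earlier results of these data known. Named genes are all 10 members, list genes past 1.5-fold at 10 CPM or highest in their list, and the 10 genes most like each group; Ccr1, the Tnf receptors, Cyld, Adam17, Nfkb2, Fos, Egr1, Egr2, Dusp1, Klf2, Jun, Atf3 by bin and the genes of the Cxcl2-rich cells were picked with their values in view. Some list genes that this rule would name are not reported here. The scripts were tested on simulated data.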

Additional observations from a re-analysis of the deposited data

How the results depend on the processing

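Of 13 alternatives to the count of members at least 1.5-fold higher (1, Ccl4), 10 left it at 1. Counting at most 5 UMIs of a gene per cell gave 0, a minimum of 50 CPM gave 0 and no minimum gave 3. The summed ratio of the 6 secreted genes, 1.32, was 1.10 with the limit of 5 UMIs per cell and 1.5 over cells with 0 UMIs of the interferon list, the latter chosen after seeing the data. The summed ratio of the 4 feedback genes lay between 0.922 and 0.954 under all 11 alternatives. The share of cells with at least 3 secreted-gene UMIs was 0.606% and 0.790% (plasma-negative and plasma-positive) with thinning to 2000 UMIs, and 2.09% and 2.96% without thinning. It was 9.64% and 10.0% for at least 1 UMI, and 0.0883% and 0.246% for at least 5. The log2 ratio of Cxcl2 turned to -0.28 with at most 5% mitochondrial UMIs, which removes the plasma-positive cell at 5.47%. The other 9 members kept their sign in 10 of 10 alternatives, and Ccl4 ranged from 0.28 to 1.14. Other scalings moved the median log2 ratio of all genes from -0.04 to between -0.04 and -0.00. Cxcl2 gave no value under thinning, mitochondrial bins or the removal of its highest cell. No paired analysis was possible because there is 1 library per group. No replicate could be left out for the same reason.

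With 9860 and 10362 cells, 0 cells with a UMI allow, at the limit of 3 counts, a share of up to 0.0304% and 0.0290%, which limits cells with a UMI and not cells expressing the gene. Differences between mice or sorts cannot be told apart from the sort itself.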
